A study of Oreochromis niloticus with 5 samples.

Results

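The genes described are hspb1, hspb7, bag3 and bag2, which are 4 of the 25511 genes with at least 1 count in the fast muscle of Nile tilapia. They were chosen by name with their levels in these libraries in view, so the levels and the spread between fish are given as a description and without a test. Fast (white) muscle was sampled from 5 full-sib males, M1 to M5, with a labelled age of 5 months, and 1 RNA-Seq library was made per fish after depletion of ribosomal RNA. The fish form 1 group with no treatment named, were drawn at random from a common tank and were euthanized with clove oil before dissection. The study's methods state a longer rearing time than the labelled age. The paper also lists a body weight and lengths for each fish, which differed between the fish and were not used here.

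Small heat shock proteins are chaperones that work without ATP. They bind proteins that have begun to unfold and hold them in a form from which the HSP70 chaperones can refold them. BAG proteins are cochaperones that dock on HSP70, release its nucleotide and steer its clients towards refolding or breakdown. In muscle of mammals, BAG3 joins HSP70 to small heat shock proteins and takes damaged Z-disc proteins such as filamin to the autophagosome. Some genes of this network are transcribed at all times in muscle, which is under constant mechanical strain, and others are switched on by heat shock factors when proteins misfold.

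Each library held 26750559 to 90337019 counts in total, with a median of 36731226, and median-of-ratios size factors were used to obtain normalized counts. Ribosomal RNA genes took 0.2005% of the counts in M1 and at most 0.0164% in the other libraries. The paper also reports for M1 the lowest overall alignment rate and the lowest share of assigned fragments among the libraries. Of 7 matched fast fibre markers, acta1b, mylpfa, ckmb, ckma and atp2a1l each had at least 398923 normalized counts in every fish. The others were low and highest in M1, mylpfb at 49.0 to 1740 and atp2a1 at 11.8 to 300 normalized counts, and slow fibre markers are given at the end.

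The hspb1 gene encodes the small heat shock protein also known as Hsp27, which binds unfolding proteins and caps actin filaments in mammals. On the assembly O_niloticus_UMD_NMBU its transcript rna26732 lies on linkage group 10 from 6934463 to 6939532, on the minus strand, with 3 exons and a length of 612 bases. The normalized count of hspb1 was 6260, 5635, 5327, 15269 and 5491 in M1 to M5 respectively. M4 was high, and the other fish lay close together. In bulk tissue, more cells of a type cannot be told apart from more RNA per cell, here and for the other genes. The mean was 7596 ± 4304 (SD, n = 5 fish), and 5678 ± 408 (SD, n = 4) without M4. By its mean hspb1 ranked 224 of 25511 genes, and at 722 ± 396 TPM (SD, n = 5), a level corrected for transcript length, it ranked 70.

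The bag3 gene encodes the cochaperone that links HSP70 to small heat shock proteins. Its transcript rna37897 lies on linkage group 13 from 25364993 to 25370023, on the plus strand, with 4 exons and 3001 bases. The normalized count of bag3 was 3082, 2705, 3328, 8425 and 3946 in M1 to M5 respectively. M4 was again the highest, M5 came next and M2 was the lowest. The mean of bag3 was 4297 ± 2351 (SD, n = 5), and 3265 ± 521 (SD, n = 4) without M4. It ranked 391 of 25511 genes by normalized count, and 539 by TPM.

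The bag2 gene encodes a BAG protein that, in mammals, inhibits the ubiquitin ligase CHIP on HSP70 and so favours refolding over degradation. Its transcript rna37385 lies on the same linkage group as bag3, from 19997357 to 20000311 on the plus strand, with 3 exons and 1386 bases, and 5.365 Mb separate the genes. The normalized count of bag2 was 295, 232, 146, 1026 and 123 in M1 to M5 respectively. M4 was the highest, M1 and M2 followed, and M3 and M5 were low. The mean was 364 ± 376 (SD, n = 5), an SD larger than the mean, and 199 ± 79.4 (SD, n = 4) without M4, and bag2 ranked 3174 of 25511 genes.

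The hspb7 gene encodes a small heat shock protein of striated muscle, known in mammals from the heart and found there with actin and filamin. Its transcript rna59634 lies on linkage group 20 from 27255407 to 27258902, on the plus strand, with 4 exons and 989 bases. The normalized count of hspb7 was 420, 92.6, 91.0, 2978 and 798 in M1 to M5 respectively. M4 was the highest and M5 came next, while M2 and M3 were low and alike. The mean was 876 ± 1211 (SD, n = 5), and 350 ± 336 (SD, n = 4) without M4, and the gene ranked 1605 of 25511. A further transcript of hspb7, rna59633, shares 874 exonic bases with it, and fragments were counted on both. The normalized counts of rna59633 ranged from 87.8 in M3 to 2885 in M4, so the isoforms could not be told apart. No feature of another gene overlapped the members.

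**Figure D1:**
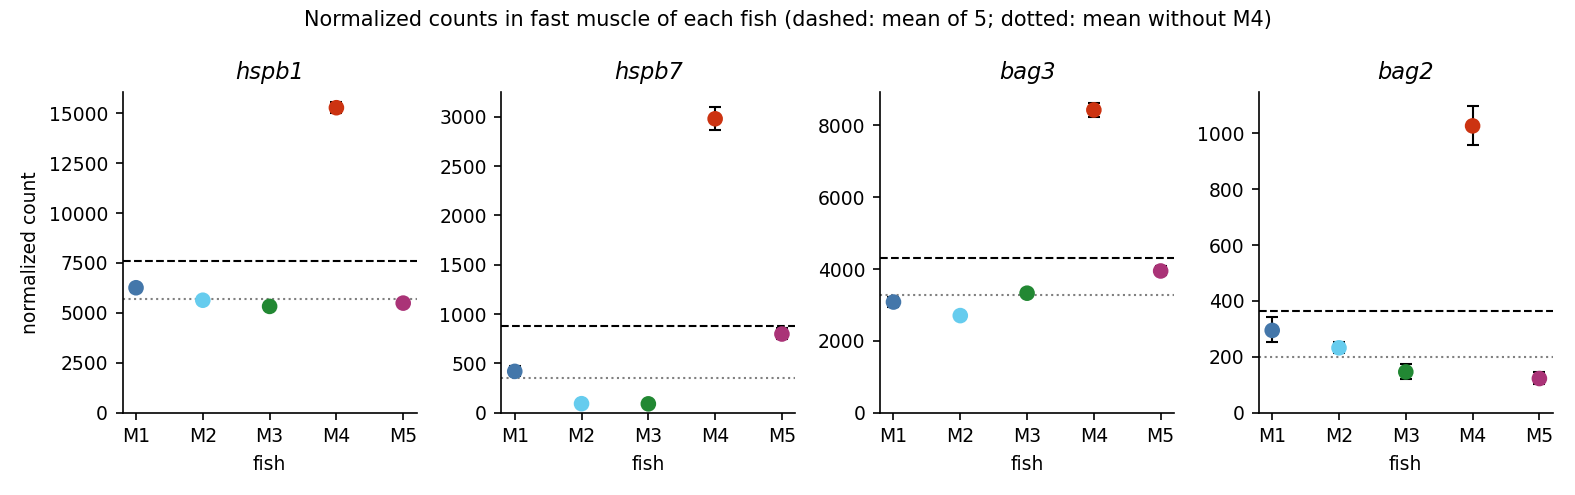
Normalized counts of hspb1, hspb7, bag3 and bag2 (vertical axes, from 0) in the fast muscle of each fish (horizontal axes). Points are single libraries, bars are exact 95% Poisson intervals of the count, the dashed line is the mean of 5 fish and the dotted line the mean without M4. M4 is the highest fish in every panel, at 15269, 2978, 8425 and 1026.

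Corrected for length, the order of the mean levels was hspb1 with 722 TPM, bag3 with 83.6, hspb7 with 51.0 and bag2 with 15.1. The lowest fish of hspb1, at 535 TPM, was above the highest fish of each other member, the largest of which was 173 TPM for hspb7. The lowest fish of bag3, at 52.8 TPM, was above the highest fish of bag2, at 42.4 TPM. The range of hspb7, from 5.48 to 173 TPM, overlapped those of bag3 and bag2, so hspb7 had no fixed place in the order.

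The counting error was small against these differences. For hspb7 in M3, the smallest count of a member, 84 fragments were counted, with an exact 95% Poisson interval of 67.0 to 104. The counting error alone gave an SD of about 0.018 on the log2 scale for hspb1, 0.024 for bag3, 0.097 for hspb7 and 0.10 for bag2. The SDs of log2(normalized count + 1) over the fish were 0.65, 0.65, 2.14 and 1.20 for the same genes. Such intervals cover counting error only, since reads of amplified libraries are not independent molecules, and with 1 library per fish the error of library preparation cannot be told apart from the difference between fish. The counting intervals of neighbouring fish overlapped for M3 with M5 and M5 with M2 in hspb1, for M1 with M3 in bag3, for M3 with M5 and M1 with M2 in bag2, and for M2 with M3 in hspb7.

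A gene was called steady when its highest fish was below 2 times its lowest, and strongly varying when the ratio was at least 4. Of the 7209 genes whose normalized counts averaged at least 100, 75.6% were steady and 5.3% were strongly varying. None of the members was steady. The ratio of the highest to the lowest fish was 2.87 for hspb1 and 3.12 for bag3, between both limits, and 8.37 for bag2 and 32.7 for hspb7, which were strongly varying. By the SD of the log2 values, hspb1 was above 91.3% of the 7209 genes, bag3 above 91.4%, bag2 above 97.5% and hspb7 above 98.9%. These values were used to choose the members and support nothing further.

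M4 was the highest fish for each of the 4 members, and for 17.2% of the 7209 genes. M4 was 2.44 times the next fish for hspb1, 2.14 times for bag3, 3.48 times for bag2 and 3.73 times for hspb7. In all, 1.07% of genes were highest in M4 and at least 2 times the next fish. Dixon's ratio is the gap of the extreme fish to its neighbour over the whole range, here of normalized counts. All 4 members lay past its limit of 0.71, as did 7.31% of genes, or 1.33% counting only those with M4 high. The ratio was not computed on log2 values, where a single high fish stands out less, so passing the limit can depend on the scale. For the other libraries, the share of genes at least 2 times the next fish ranged from 0.125% with M2 as the highest to 0.805% with M1.

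The members parted when M4 was left out. The ratio of the highest to the lowest of the remaining 4 fish was 1.18 for hspb1 and 1.46 for bag3, both steady, where 79.9% of genes were steady in the same fish. It was 2.40 for bag2 and 8.77 for hspb7, and 4.05% of genes reached at least 4 in these fish. The SD of the log2 values of hspb1 fell to 0.10, above only 5.37% of genes, and that of bag3 to 0.23, above 37.2%. The SD of bag2 was 0.58, above 89.0% of genes, and that of hspb7 was 1.57, above 98.4%. Thus hspb1 and bag3 had an even level in M1, M2, M3 and M5 and a single high fish, whereas bag2 and hspb7 also differed among those 4 fish.

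**Figure D2:**
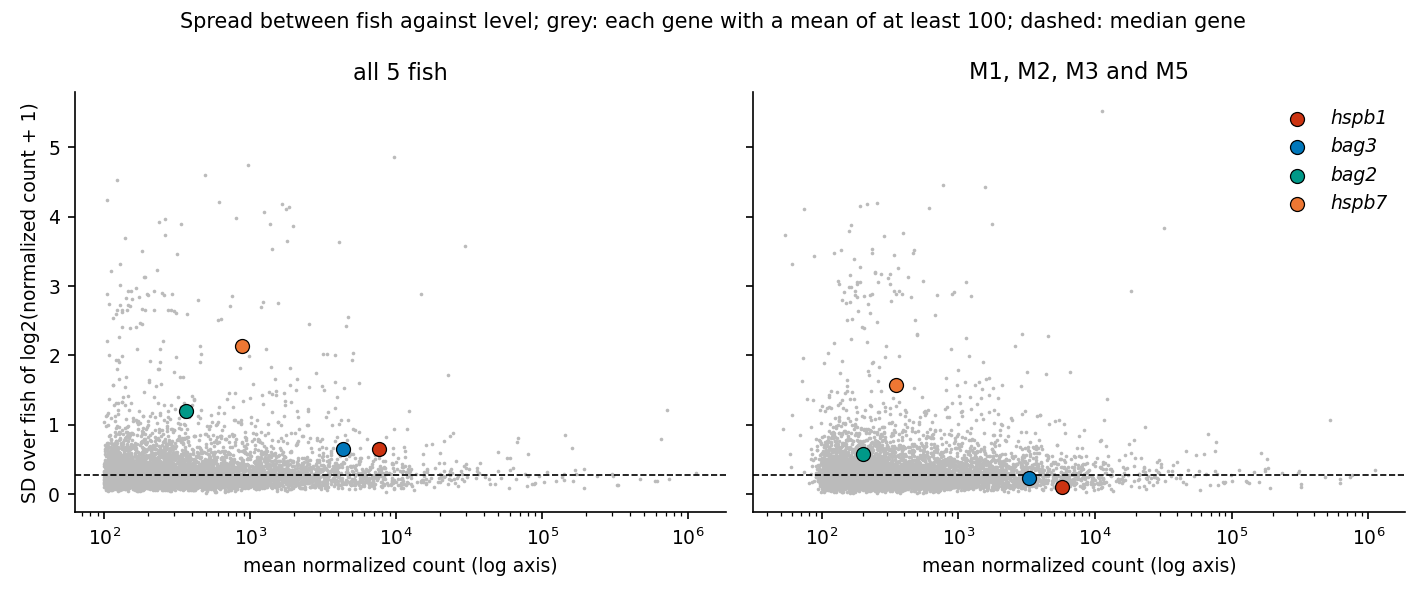
SD over fish of log2(normalized count + 1) (vertical axis) against the mean normalized count (horizontal log axis) for 7209 genes in grey, with the members in colour and the median gene as a dashed line, for all 5 fish (left) and without M4 (right). hspb1 moves from an SD of 0.65 to 0.10 and bag3 from 0.65 to 0.23, while hspb7 stays high at 1.57.

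Whether hspb1 and bag3 moved together was examined through their ratio, which is constant when both change by the same factor between fish. Genes that rise and fall together by unlike factors do not keep it constant, so the order of the fish is given too. A correlation over 5 fish was not computed. The normalized count of hspb1 was 2.03, 2.08, 1.60, 1.81 and 1.39 times that of bag3 in M1 to M5 respectively. The transcripts differ in length, so this ratio compares fish and not the levels of the genes. The SD of its log2 value was 0.24 (n = 5), against 0.65 for each gene alone. Of the genes with a mean of at least 100, 0.222% were closer to hspb1 than bag3 was by this measure, and 0.180% were closer to bag3 than hspb1 was. The median gene had an SD of 0.71 to either.

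This likeness rested on M4. In M4, hspb1 stood at 2.69 times and bag3 at 2.58 times the mean of the other fish. Among the other 4 fish, hspb1 was ordered M1, M2, M5, M3 from high to low and bag3 was ordered M5, M3, M1, M2. Of the 6 pairs of these fish, 2 had the same order for both genes. Without M4 the SD of the log2 ratio was 0.28, larger than the SD of 0.10 for hspb1 and of 0.23 for bag3, and 43.1% of genes were then closer to hspb1 than bag3 was. Both genes were thus high in the same single fish. Their small differences among the rest showed no shared order, but some of these orders lay within counting error. The counting intervals overlapped for M3 with M5 and M5 with M2 in hspb1, and for M1 with M3 in bag3.

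**Figure D3:**
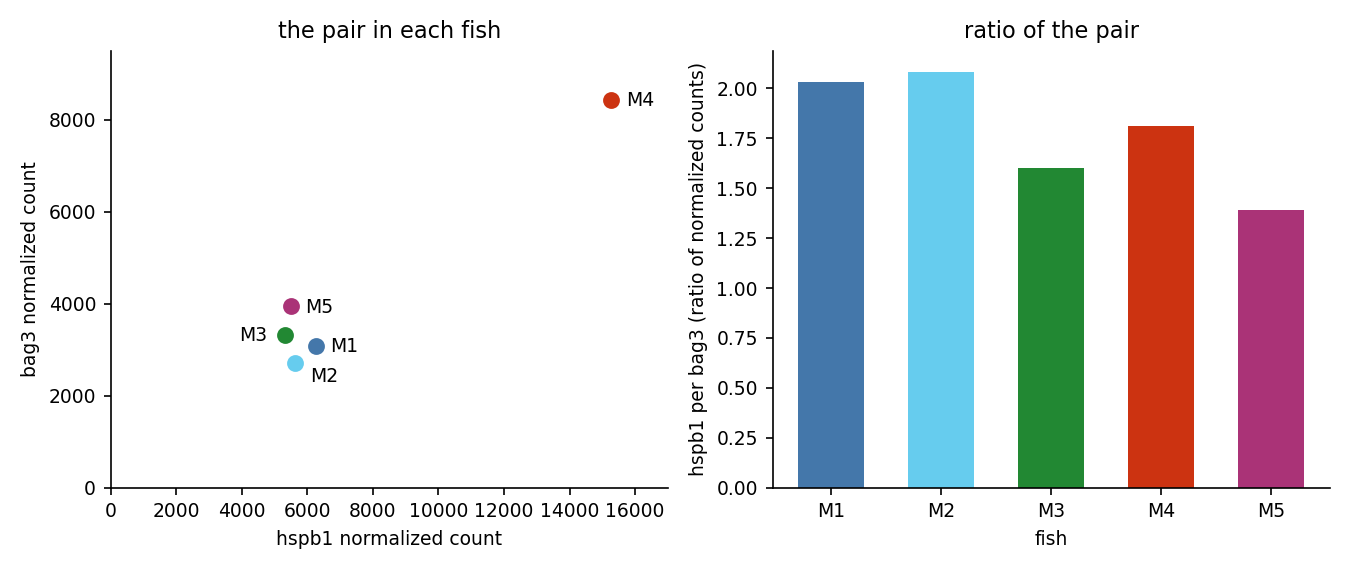
Left, the normalized count of bag3 (vertical axis) against that of hspb1 (horizontal axis), 1 point per fish. Right, the ratio of the normalized counts of hspb1 and bag3 in each fish. M4 lies apart from a cluster of 4 fish, and the ratio runs from 1.39 in M5 to 2.08 in M2.

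By the SD of the log2 ratio the other pairs of members were less alike than hspb1 and bag3. This measure also grows where the genes of a pair differ in spread, as hspb7 did from the others. Of the genes with a mean of at least 100, 0.527% were closer to bag2 than hspb1 was, and 24.8% were closer to hspb1 than bag2 was. M4 was the highest fish of every member, so each pair of fish that included M4 agreed from the start. The log2 ratio of hspb1 to bag2 had an SD of 0.63 and that of bag3 to bag2 an SD of 0.82 (n = 5). The ratios of hspb7 to hspb1, bag3 and bag2 had SDs of 1.67, 1.61 and 1.63. Of the 10 pairs of fish, 9 had the same order for hspb1 and bag2, 8 for hspb1 and hspb7, 8 for hspb7 and bag3, 7 for hspb7 and bag2 and 5 for bag3 and bag2, against 6 for hspb1 and bag3. Without M4, the same order was found in 5 of 6 pairs for hspb1 and bag2, 4 for hspb1 and hspb7 and 4 for hspb7 and bag3. It was found in 3 pairs for hspb7 and bag2, 2 for hspb1 and bag3 and 1 for bag3 and bag2. The share of such agreement over all genes was not computed. The fish were ordered M4, M1, M2, M3, M5 for bag2 and M4, M5, M1, M2, M3 for hspb7, so M5 was the lowest fish of bag2 and came right after M4 in hspb7.

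The remaining small heat shock proteins were taken from a list of 14 symbols, of which 8 genes were matched. The hspb9 gene had 9578 ± 3847 normalized counts (SD, n = 5), the highest mean of the list, and hspb8, the partner of BAG3 in mammals, had 7715 ± 2404. Their ratios of the highest to the lowest fish were 2.99 and 2.16, with M4 the highest at 15610 for hspb9 and 11779 for hspb8. The hspb6 gene, whose product in mammals binds actin and is phosphorylated by cyclic nucleotide kinases, was strongly varying, with 2287, 898, 1177, 4397 and 3693 normalized counts in M1 to M5 respectively. M4 and M5 were high and M2 and M3 low, as for hspb7. Per length, hspb9 had 522 TPM, hspb8 261 TPM and hspb6 62.1 TPM.

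The hspb11 gene had a mean of 23.2 normalized counts, below the limit of 100, and was the only detected gene of this list that was not highest in M4. For hspb12 and for cryaa, a crystallin of the eye lens, 0 counts were found in every fish, which allows up to 3 counts in each library, or 4.94 normalized counts in M1. The SD of the log2 values was 0.58 for hspb9, 0.41 for hspb8 and 1.00 for hspb6, against a median of 0.27 over all 7209 genes. Of these, hspb6 was strongly varying and none was steady, against 5.3% and 75.6% of all genes. Each was highest in M4, as were 17.2% of all genes.

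The BAG family was represented by 6 genes. The bag6 gene, a cochaperone for membrane proteins that miss their target, had 474 ± 30.3 normalized counts (SD, n = 5), bag1 had 330 ± 31.5 and bag5 had 131 ± 16.5. Their ratios of the highest to the lowest fish were 1.15, 1.25 and 1.30, and all were steady, as were 75.6% of all genes. In M4 they stood at 1.07, 0.990 and 0.851 times the mean of the other fish. The bag4 gene had a mean of 46.4 normalized counts, with 70.8 in M1 as the highest and 18.9 in M5 as the lowest. Among the 5 genes of this family past the limit of 100, M4 was the highest fish for bag3 and bag2 only, against 17.2% of all genes. The bag3 and bag2 genes were chosen with their values in view, so the contrast within the family is a description.

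A list of HSP70, HSP110, HSP90 and J-protein genes held 22 genes past the limit. Of the proteins they encode, BAG proteins dock on HSP70. In this list 8 genes were strongly varying and 12 steady, against 5.3% and 75.6% of all genes. Of these 22, 14 were highest in M4, against 17.2% of all genes, and 7 were at least 2 times the next fish there, against 1.07% of all genes. The list was written with earlier results of these data known, so these shares are a description. The hsc70 gene, with a mean of 6897 normalized counts and an SD of the log2 values of 0.22, was not matched and is not counted. The inducible HSP70 gene hspa1b had 3578, 1922, 271, 17435 and 282 normalized counts in M1 to M5 respectively. The HSP90 gene hsp90aa1.1, which serves myosin folding in zebrafish, ranged from 583 in M3 to 17699 in M4, and hsp90aa1.2 from 51.8 in M5 to 3918 in M4. The J-protein gene dnajb1b ranged from 397 in M5 to 10864 in M4.

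In these genes M1 and M2 lay between M4 and the low fish M3 and M5, as they did for bag2. For hspb1, M3 and M5 stood at 5327 and 5491 against 5635 in M2, without such a step. Without M4 the ratio of the highest to the lowest fish was 13.2 for hspa1b, 8.01 for dnajb1b, 2.40 for bag2, 1.46 for bag3 and 1.18 for hspb1. Within the list, 5 of the 22 genes remained strongly varying without M4, against 4.05% of all genes in the same fish. The HSP110 gene hspa4a, a nucleotide exchange factor of HSP70, ranged from 868 in M5 to 10826 in M4. The hspa8 gene had a ratio of 1.39 and hsp90ab1 a ratio of 1.48, both steady, as were 75.6% of all genes. Both were chosen after their values were seen, and hspa8b, a paralog of hspa8, had a ratio of 5.13. The J-protein dnajb6b had the highest mean of the list, 7927 ± 2046 normalized counts (SD, n = 5), and was steady with a ratio of 1.77.

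The heat shock factor hsf1, which switches on inducible chaperone genes, had between 675 normalized counts in M1 and 930 in M5, with 733 in M4. Its mRNA was therefore not highest in M4. The hsf2 gene had a mean of 58.5 normalized counts, and hsf4 had 0 counts in every fish. Among chaperones of the mitochondrion and of collagen, trap1 had the highest mean, 601 ± 83.7 (SD, n = 5). None of the 3 genes past the limit was strongly varying, where 5.3% of all genes were.

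The list of BAG3 partners in selective autophagy and at the Z-disc held 16 genes past the limit, of which 13 were steady, a share near the 75.6% of all genes. The desmin gene desma was not matched by the symbol on the list. It had a mean of 88765 normalized counts and an SD of the log2 values of 0.16. Among the matched genes, the Xin repeat protein gene xirp1 had the highest mean, 10226 ± 4017 normalized counts (SD, n = 5). It was ordered M4, M5, M3, M1, M2, the order of bag3, in which M1 and M3 had overlapping counting intervals. The value of xirp1 was 16829 in M4 and between 6731 and 10621 in the other fish. The ubiquitin ligase stub1, known as CHIP, had a ratio of 1.55, the autophagy receptor sqstm1 a ratio of 1.87 and synpo2a a ratio of 1.36. The only strongly varying gene of the 16 was hspa8b, already given, where 5.3% of all genes were strongly varying.

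Of early response genes, which are transcribed within minutes of a stimulus, 12 passed the limit. Of these, 7 were strongly varying, against 5.3% of all genes, and 9 were highest in M4, against 17.2%. This list, too, was written with earlier results of these data known. The transcription factor gene atf3 had 2135, 3969, 576, 7028 and 427 normalized counts in M1 to M5 respectively. M4, M2 and M1 were high and M3 and M5 low. The fish had the same order in jun, from 738 in M5 to 7610 in M4, and in ier2a, from 254 to 2688. That order also held for ier2b, from 760.5 to 5168, for nr4a1, from 302 to 2159, and for egr1, from 157 to 770. In egr1, M3 at 429 lay close to M1 at 492, and in nr4a1, M2 at 2082 lay close to M4 at 2159. The remaining strongly varying gene, junbb, had M3 at 798 above M1 at 631. The phosphatase gene dusp1 had the highest mean of the list, 9669 ± 2341 (SD, n = 5), and was steady with a ratio of 1.81. Without M5, 4 genes of the list remained strongly varying, and the share over all genes was not computed without M5. The part of the early response in the levels of the members was not tested.

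**Figure D4:**
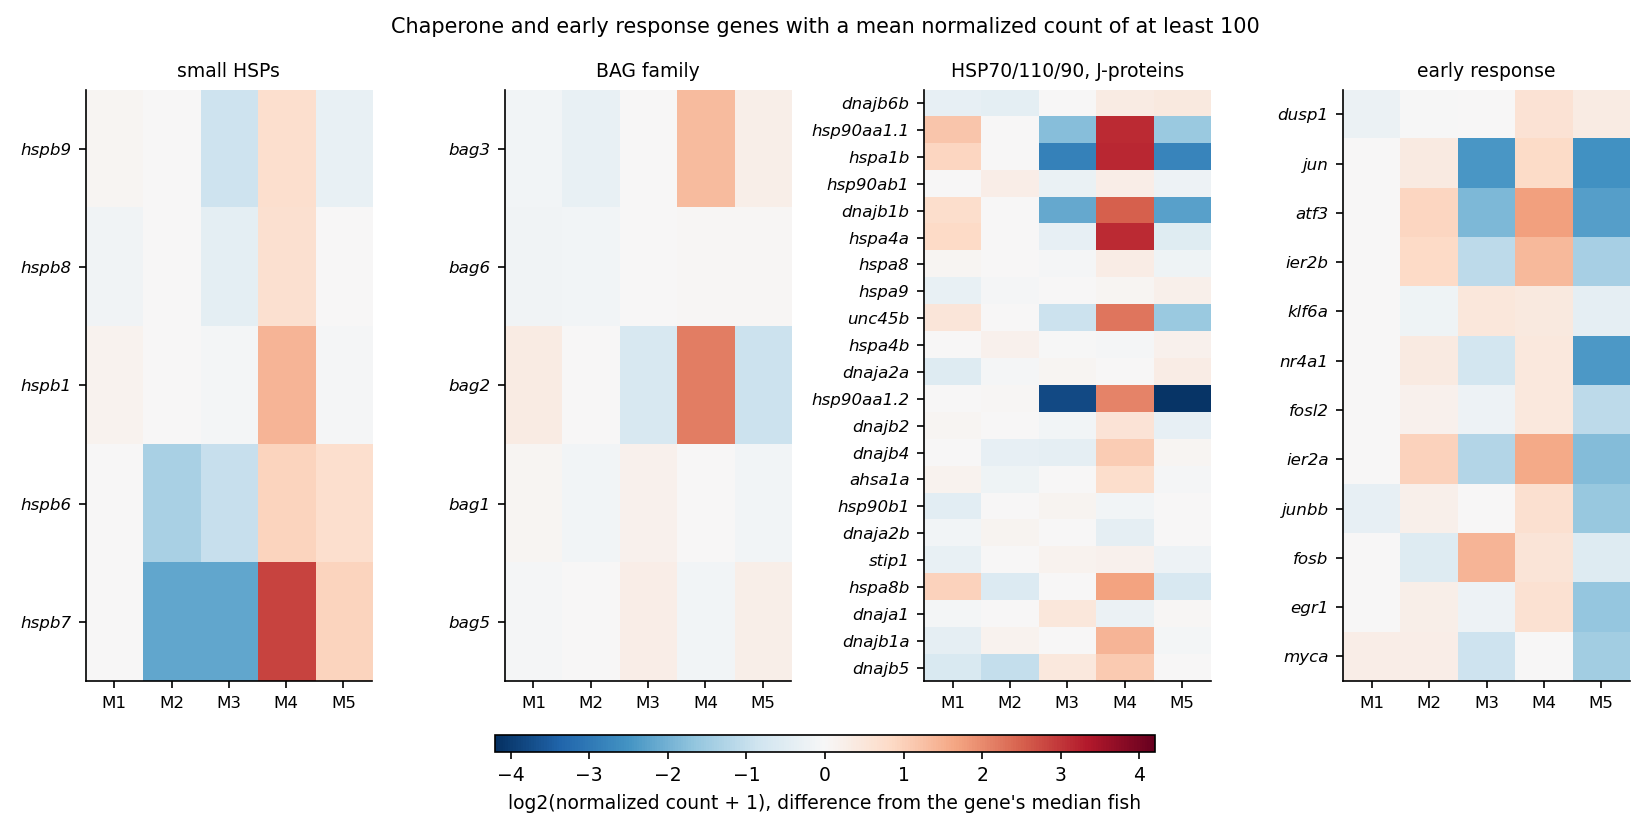
Heat map of log2(normalized count + 1) as the difference from the median fish of each gene, for genes with a mean of at least 100. Rows are genes by falling mean, columns are fish, red is above and blue below the median. M4 is red for hspb1, bag3, bag2 and hspb7, M3 and M5 are blue for hspa1b, hsp90aa1.1 and atf3, and bag6, bag1 and bag5 are pale throughout.

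Genes of the closest pattern were sought among the 382 strongly varying genes by the SD of the log2 ratio over the 5 fish. The limit of 4 leaves out closer genes, bag3 among them for hspb1. The 5 genes nearest to hspb1 and the 5 nearest to bag3 passed it only through M4, with ratios without M4 of 1.35 to 2.57, so the limit itself fixed their shared high value in M4. The closest to hspb1 were hprt1l with an SD of 0.23, herc4, of a family of ubiquitin ligases, with 0.29, smyd1b with 0.29, the mitochondrial carrier slc25a55a with 0.33 and the transcription cofactor lbh with 0.36. The smyd1b gene, a methyltransferase that acts with Hsp90 and Unc45b in thick filament assembly in zebrafish, had 1683, 1238, 895, 3922 and 1022 normalized counts in M1 to M5 respectively. Its fish were in the same order as those of hspb1, in which some neighbouring fish had overlapping counting intervals.

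The closest to bag3 were hprt1l with 0.30, si:dkey-27i16.2 with 0.31, klhl40b with 0.39, the clock gene per2 with 0.40 and herc4 with 0.43. The klhl40b gene, whose mammalian counterpart stabilizes thin filament proteins, had 326, 267, 562, 1353 and 686 normalized counts in M1 to M5 respectively. Like per2, it had its fish in the order of bag3, in which M1 and M3 had overlapping counting intervals. For per2, M5 and M3 were nearly equal, at 112.6 and 111.6 normalized counts. The hprt1l and herc4 genes were on the lists of both hspb1 and bag3.

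The closest genes to bag2 and hspb7 were looked for after their values had been seen. For bag2 they were LOC100706085 with an SD of 0.23, the myosin chaperone unc45b with 0.33, zpr1 and LOC100702479 with 0.36, and hspa4a with 0.36. Of these, unc45b had a ratio of 4.24 without M4. The others had ratios of 1.74 to 2.52 without M4, so the limit of 4 itself fixed their high value in M4. The unc45b gene had 1525, 1062, 561, 5002 and 360 normalized counts in M1 to M5 respectively, the order of bag2. In bag2, M3 with M5 and M1 with M2 had overlapping counting intervals. For hspb7 the closest genes were the troponin I gene tnni4b.2 with 0.64, the thymosin tmsb2 with 0.73, klhl41a with 0.75, LOC100694494 with 0.77 and LOC100705823 with 0.92. The klhl41a gene, of the same family of sarcomere proteins as klhl40b, had 2629, 1088, 1037, 9752 and 5014 normalized counts in M1 to M5 respectively. This was the order of hspb7, in which M2 and M3 had overlapping counting intervals. All these closest genes were chosen for their likeness, which is given as a description over 5 fish.

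**Figure D5:**
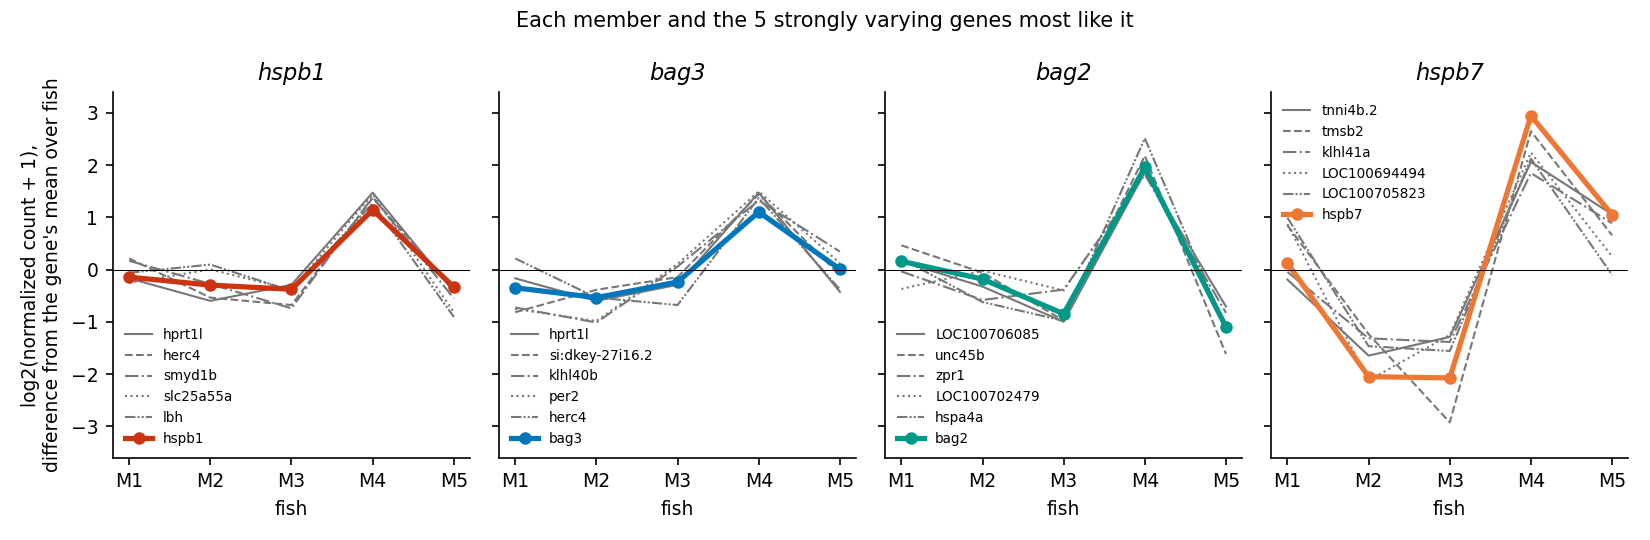
log2(normalized count + 1) as the difference from the mean over fish (vertical axes) in each fish (horizontal axes) for each member in colour and the 5 strongly varying genes closest to it in grey. The panels of hspb1 and bag3 have 1 peak, in M4, that of bag2 falls from M1 to M3 and M5 beside the peak, and that of hspb7 is low in M2 and M3.

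The slow fibre list matched 10 genes, whose summed level was 12471 normalized counts in M4, 10323 in M1 and between 4442 and 6060 in the other fish. Most of the sum in every fish was myoz2b, with 11798 in M4 and 8214 in M1. The other genes of the list with a mean of at least 100, myoz2a and mybpc1, were highest in M1. The myoz2a gene had 887 normalized counts in M1 and 620 in M4. The slow myosin-binding protein mybpc1 had 1126 normalized counts in M1, 13.3 in M4 and at most 6.81 elsewhere, and tnni1b had 0 in every fish. The summed markers of red blood cells and of adipocytes were lowest in M4, at 118 and 1771 normalized counts, with adipocytes at 1865 in M2. The summed markers of liver ranged from 2.42 in M4 to 13.2 in M1, too few counts to order the fish. Those of fibroblasts were 29876 in M4, against 18531 to 50195 over all fish, those of endothelium and smooth muscle 2597, against 2044 to 3189, and those of leukocytes 118, against 108 to 138. The part of slow fibres in the levels of hspb7 and hspb6 was not tested.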

How the data were processed

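The authors trimmed reads with BBDuk, aligned them with HISAT2 2.1.0 and counted fragments with featureCounts on an NCBI annotation of O_niloticus_UMD_NMBU, and deposited raw counts per feature, mostly transcripts. A fragment could match several transcripts. The strand setting of the counting is not given in the sources used here. No column was left out (0 not used).

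Counts were normalized with median-of-ratios size factors (DESeq2 1.42.0, R 4.3.3), in Python 3.11.15 with numpy 2.4.6. Features were matched by coordinates to the RefSeq gene table of the same assembly (79924 of 80416), and each gene was represented by its most expressed feature. TPM used the deposited lengths. Lists were matched by symbol and synonym, and a planned match by gene description could not be applied. Family members under a LOC name or under a symbol not on a list, such as hsc70 and desma, are therefore not included. No sequences were used here. The scripts were tested on simulated counts.

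All 5 libraries form 1 group, so no groups were compared, and Dixon's ratio served only to mark a fish apart from the others. The members and lists were chosen with earlier results of these data known. Named were the members, every matched small heat shock protein and BAG gene, and of each other list the highest and up to 6 strongly varying genes. The 5 closest strongly varying genes to hspb1 and to bag3 were named too. Other genes, such as hspa8, hsp90ab1, stub1, sqstm1 and synpo2a, were chosen after their values were seen. The alternatives were CPM scaled by TMM (edgeR 4.0.16), CPM from unscaled totals, regularized log values, TPM, drawing counts down to the smallest library, a pseudocount of 0.1, summed transcripts, minimum means of 10 and 1000, and leaving out each fish. The total counts per library ran from 26750559 to 90337019. Fragments that matched several transcripts were counted on each, so these totals exceed the assigned fragments that the paper reports. Counting intervals were taken from the count of each member in each library.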

Additional observations from a re-analysis of the deposited data

Results flagged for a closer look

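A single fish apart from its group was looked for by Dixon's ratio at its limit of 0.71. The ratio is the gap to the next fish over the range of the 5 fish, on counts and not on log2 values. Of 47 sets of values 23 passed, where chance gives about 1 in 20, or 2.35, but the members were chosen for their spread and other genes for their likeness to them, and that rate is no yardstick for them. Over all 7209 genes 7.31% passed, and 1.33% passed with M4 high.

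All 4 members passed with M4 far above the rest, at 15269 normalized counts for hspb1, 8425 for bag3, 1026 for bag2 and 2978 for hspb7. On the list of HSP70, HSP110, HSP90 and J-protein genes, M4 stood apart for hspa1b at 17435, hsp90aa1.1 at 17699 and hsp90aa1.2 at 3918 normalized counts. It also stood apart there for dnajb1b at 10864, hspa4a at 10826 and unc45b at 5002. Among the genes closest to a member, M4 stood apart for smyd1b at 3922, slc25a55a at 2899, herc4 at 1398 and tmsb2 at 1386 normalized counts. M4 also stood apart for LOC100702479 at 1055, lbh at 745.5, LOC100706085 at 502.6 and zpr1 at 466.4. The same held for hprt1l at 340.7, per2 at 293.6 and si:dkey-27i16.2 at 256.2. All of these closest genes but tmsb2 had passed the limit of 4 only through M4.

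The heat shock factor hsf1 passed the limit with M5 high, at 930 normalized counts, which was 1.26 times the next fish. The gene was steady, with a ratio of 1.38. The library of M2, with 90337019 counts, was far deeper than the others, and the values of the members in M2 were not the highest after scaling.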

How the results depend on the processing

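No paired analysis was possible because all libraries are of 1 group. Of 250 values under 14 alternatives, 221 stayed within the limits set, which were a factor of 1.5 or, for a rank by level, the SD between fish, and 29 moved, 11 of them without M4. Without 1 fish, the SD of the log2 values ranged from 0.101 to 0.739 for hspb1, from 0.228 to 0.748 for bag3, from 0.582 to 1.39 for bag2 and from 1.57 to 2.47 for hspb7. The ratio of the highest to the lowest fish ranged from 1.18 to 2.87 for hspb1, from 1.46 to 3.12 for bag3, from 2.40 to 8.37 for bag2 and from 8.77 to 32.7 for hspb7, in each case lowest without M4. The SD of the log2 ratio of hspb1 to bag3 ranged from 0.174 to 0.280. The percentile of the mean of hspb1 among detected genes ranged from 98.7 to 99.2, that of hspb7 from 86.9 to 94.5 and that of bag2 from 80.4 to 88.7, the lowest in each case without M4. Strongly varying genes numbered 1 to 2 small heat shock proteins (1 without M2), 0 to 1 BAG genes and 0 to 1 BAG3 partners (0 without M4), 5 to 8 HSP70, HSP110, HSP90 and J-protein genes (5 without M4) and 4 to 7 early response genes (4 without M5).

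Regularized log values are shrunk towards the mean and gave SDs of 1.36 for hspb7 and 0.775 for bag2, ratios of 9.49 and 3.87, and an SD of 0.159 for the ratio of hspb1 to bag3, with 1 small heat shock protein, 0 BAG genes, 0 BAG3 partners and 3 early response genes strongly varying. A minimum mean of 1000 left fewer genes, with 1 small heat shock protein, 0 BAG genes and 0 BAG3 partners. In TPM the percentile of the level was 99.7 for hspb1 and 97.9 for bag3, and with summed transcripts 98.2 and 97.0, against 99.1 and 98.5. With a single library per fish, differences between fish hold for these samples only. The minimum mean does not enter the values of the members.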
